A study of Mus musculus with 6 samples.

Results

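The 10 genes described here encode the factors that carry the ribosome through elongation and bring translation to its end. They were chosen by gene symbol: 4 subunits of the elongation factor 1 complex (Eef1a1, Eef1b2, Eef1d and the targeted Eef1g), the related Eef1e1, elongation factor 2 (Eef2) and its kinase (Eef2k), the release factors Etf1 and Gspt1, and the recycling factor Abce1. All 10 were found among the 54532 genes of the count table, and all 10 passed the filter on low counts that left 8513 genes for testing. RNA was sequenced from leptotene/zygotene (L/Z) spermatocytes, which had been sorted after Hoechst staining from the testes of mice aged 12 days postpartum. The groups were 3 control libraries, labelled wild type and described by the study as littermates, and 3 Eef1g-cKO libraries, in which a floxed Eef1g allele on a C57BL/6J background had lost internal exons through Stra8-GFPCre. This Cre acts in male germ cells from the spermatogonial stage onward, so somatic cells of the testis keep the gene. How many animals went into a library is not stated in the sources used here, so p-values measure the spread between libraries. The question was whether transcripts of the elongation and termination machinery changed when 1 of its subunits was removed.

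During elongation, eEF1A (encoded by Eef1a1) brings aminoacyl-tRNA to the ribosomal A-site as a complex with GTP. The eEF1B complex then exchanges the spent GDP: eEF1B2 and eEF1D carry the exchange activity, and eEF1G holds the complex together. After each peptide bond eEF2 moves the ribosome along the mRNA, and eEF2K, a calmodulin-dependent kinase, inhibits it by phosphorylation. At a stop codon eRF1 (Etf1) and the GTPase eRF3a (Gspt1) release the protein, and the ATPase ABCE1 splits the ribosome for another round. Many mRNAs of the translation machinery, those of eEF1A and eEF2 among them, begin with a pyrimidine-rich tract through which their translation is controlled.

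The sequences around the annotated starts of 6 members are shown because 3 of these genes were lower in Eef1g-cKO cells (Eef1a1, Eef1b2 and Eef2) and 3 were not called (Eef1e1, Gspt1 and Abce1). Each runs 5′ to 3′ over 60 bases, 30 before and 30 after the RefSeq start (GRCm38.p6), and capitals mark its longest run of C or T. The table of start sequences held 7 of the 10 members. Eef1a1 lies at chr9:78481695-78481754 on the minus strand, Eef1b2 at chr1:63176801-63176860 on the plus strand, Eef2 at chr10:81176601-81176660 on the plus strand, Eef1e1 at chr13:38658999-38659058 on the minus strand, Gspt1 at chr16:11254296-11254355 on the minus strand and Abce1 at chr8:79711711-79711770 on the minus strand.
Eef1a1: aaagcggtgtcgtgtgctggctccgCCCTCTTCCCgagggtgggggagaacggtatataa
Eef1b2: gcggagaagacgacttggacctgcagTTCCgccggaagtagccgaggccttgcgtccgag
Eef2: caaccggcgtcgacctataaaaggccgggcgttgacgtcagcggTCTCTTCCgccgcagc
Eef1e1: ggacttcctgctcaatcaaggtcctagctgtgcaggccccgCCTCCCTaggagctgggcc
Gspt1: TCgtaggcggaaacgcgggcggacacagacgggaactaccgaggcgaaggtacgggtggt
Abce1: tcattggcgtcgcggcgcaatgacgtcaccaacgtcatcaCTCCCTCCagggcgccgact

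The longest pyrimidine run had 10 bases in Eef1a1, and 10.9% of all 32851 start windows of this length held a run at least as long. It had 8 bases in both Eef2 and Abce1, where the share was 22.9%, so run length did not set the lower genes apart from Abce1. Eef1b2 had a run of 4 bases, and 88.4% of windows held a run at least as long. The letters TATAA, searched in the sequence as printed, were found in Eef1a1 and Eef2 and in 4.21% of all windows. In Eef2 they lie before the annotated start. In Eef1a1 they end the window, after both the annotated start and the marked run, so this run is not shown to lie at an mRNA start. Annotated starts can lie some bases away from the start that these cells use, so the windows describe the annotation and not a measured 5′ end.

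Transcripts for delivery of aminoacyl-tRNA and for translocation were lower in the Eef1g-cKO spermatocytes, whereas none of the transcripts for release and recycling was called. Of the 10 genes, 5 were lower and 0 were higher by edgeR (quasi-likelihood F test, Benjamini-Hochberg adjusted p under 0.05). Among all tested genes 6.01% were lower and 7.8% were higher by this rule. These shares were 7.51% and 5.44% with upper-quartile scaling, and 7.55% and 3.91% with library totals, and the members' numbers stayed at 5 and 0. With a log2 fold change under −1 as a further limit, 3 of the 10 were lower, against 4.96% of all tested genes. The 5 lower genes were Eef1a1, Eef1g, Eef1b2, Eef1d and Eef2. At an unadjusted p under 0.05 the numbers were again 5 and 0, against 13.2% and 14.3% of all tested genes. They were also 5 and 0 with DESeq2, where the shares were 7.19% and 8.63%, and with limma-voom, where they were 8.07% and 10.8%. The median log2 fold change was −0.69 over the 10 members and −0.050 over all tested genes. Without control replicate 1, 2 or 3 the number lower was 2, 3 and 4, and the share of all tested genes was 2.52%, 2.73% and 2.74%. Without Eef1g-cKO replicate 1 it was 3, against 4.49%.

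**Figure D1:**
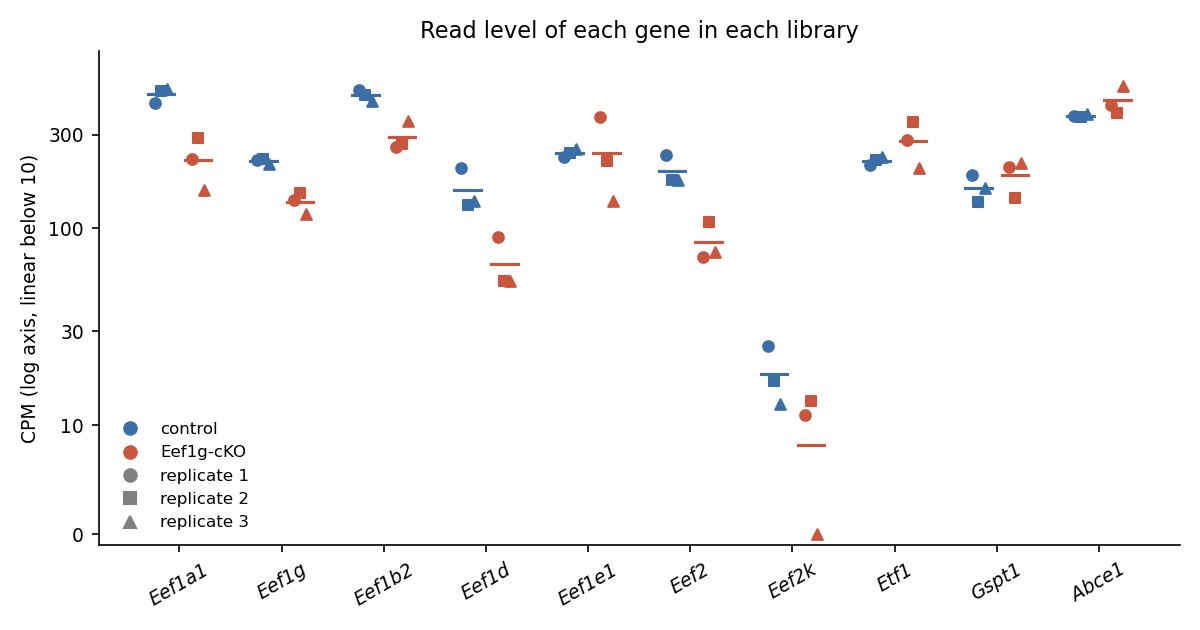
Scaled reads per 1000000 (CPM) of the 10 genes in each library (log axis, linear below 10), with control in blue, Eef1g-cKO in red, a symbol for each replicate and a line at each mean. Groups do not overlap for Eef1a1, Eef1g, Eef1b2, Eef1d and Eef2, where Eef1g-cKO lies lower, and for Abce1, where it lies higher.

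The libraries held between 763133 and 2617648 reads, and Eef1g-cKO replicate 3 was the shallowest, with the highest share of rRNA reads (16.3%). Levels are given as CPM, that is reads of a gene in every 1000000 after TMM scaling of the libraries. The detection floor of 3 reads lay between 1.18 and 4.63 CPM. The cell type label was checked against 10 markers of L/Z spermatocytes: all had reads, and their summed level was 9500 to 10461 CPM in control libraries and 18966 to 24672 CPM in those of Eef1g-cKO. Of 9 tested, 5 were higher and 1, Stra8, was lower. Markers of other cells differed as well. Spermatogonial markers summed to between 1480 and 1741 CPM in the control libraries against 701 to 813 CPM, and of 6 tested markers 5 were lower. Peritubular and stromal markers summed to between 188 and 322 CPM in control libraries against 23.2 to 79.2 CPM, with 4 of 5 tested lower. For Sertoli markers the ranges were 132 to 385 CPM and 26.3 to 82.7 CPM, with 2 of 4 tested lower. Leydig markers had 10.7 CPM or less in every library, with Cyp17a1 and Hsd3b1 at 0 reads. Blood markers had 77.9 CPM or less, with Cd68 and Cd74 at 0. Of the later germ cell markers 6 of 8 had reads (Acrv1 and Adam3 had 0), with a summed level of at most 42.7 CPM in control libraries against 16.1 CPM. Of 2 tested, 1 was lower, Piwil1 (log2 fold change −5.94, edgeR adjusted p 0.0014), with 34, 22 and 30 reads in control and 0, 1 and 0 in Eef1g-cKO libraries. The part of these shifts in the changes below was not tested, and fewer cells of a type and less RNA per cell cannot be told apart in sorted bulk samples.

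The targeted Eef1g (ENSMUSG00000071644, chromosome 19, 8967041 to 8978479, plus strand) had 291, 430 and 378 reads in control and 172, 384 and 77 reads in Eef1g-cKO libraries (replicates 1 to 3). In CPM these were 222, 226 and 212 against 139, 151 and 119, so the groups did not overlap. The log2 fold change was −0.68 (SE 0.20, 95% interval −1.10 to −0.26, edgeR adjusted p 0.029), a mean lower by 38%. The count covers the whole gene, including exons that the deletion leaves in place, and so does not measure intact mRNA. The call was lost without control replicate 1 (−0.66, adjusted p 0.11), control replicate 2 (−0.66, 0.12), control replicate 3 (−0.71, 0.0919) or Eef1g-cKO replicate 1 (−0.66, 0.0837).

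A processed pseudogene, Gm4366 (ENSMUSG00000107383), matches the Eef1g transcript at 99.6% identity over 1342 bases, and reads of 1 can be assigned to the other. It held 42, 73 and 67 reads in control and 33, 40 and 20 reads in Eef1g-cKO libraries. The copies of Eef1g together held 10.4% to 26% as many reads as Eef1g itself, the highest share being in Eef1g-cKO replicate 3. The level of Gm4366 was 36.0 ± 3.41 CPM in control libraries and 24.4 ± 7.85 CPM in the others (SD, n = 3; log2 fold change −0.60, SE 0.43, edgeR adjusted p 0.39). With the reads of the copies added to each member, the value for Eef1g was −0.67 (adjusted p 0.022). Of 8 such copies of Eef1a1 only 5 had any read, and they held at most 11.8% as many reads as Eef1a1 in a library; the log2 fold change of Eef1a1 with them was −1.06.

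Eef1a1 (ENSMUSG00000037742, chromosome 9, 78478449 to 78489151, minus strand) encodes the GTPase that carries aminoacyl-tRNA. Its level was 436, 501 and 513 CPM in the control libraries and 226, 287 and 158 CPM in the Eef1g-cKO libraries. The highest Eef1g-cKO library lay well under the lowest control library. The mean fell by 53.7%, a log2 fold change of −1.09 (SE 0.20, 95% interval −1.51 to −0.67, edgeR adjusted p 0.0013). Eef1a1 was called in every fit that left out 1 library, from −1.30 to −0.87.

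Eef1b2 (ENSMUSG00000025967, chromosome 1, 63176825 to 63180486, plus strand), an exchange factor of the eEF1B complex, had 507, 474 and 442 CPM in control libraries and 260, 268 and 352 CPM in those of Eef1g-cKO. All Eef1g-cKO libraries lay lower, with the shallow replicate 3 nearest to control. The log2 fold change was −0.70 (SE 0.17, 95% interval −1.06 to −0.34, edgeR adjusted p 0.011). The adjusted p was 0.0671 without control replicate 1, 0.052 without control replicate 2 and 0.0691 without Eef1g-cKO replicate 1.

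Eef1d (ENSMUSG00000055762, chromosome 15, 75894205 to 75909556, minus strand), the other exchange factor, had 204, 131 and 137 CPM in control libraries and 90.6, 54.1 and 54.1 CPM in those of Eef1g-cKO. Replicate 1 was the highest library in each group, and the groups did not overlap. Its log2 fold change, −1.24, was the most negative of the 10 (SE 0.28, 95% interval −1.83 to −0.65, edgeR adjusted p 0.0061). Without control replicate 1 it was −1.0 with an adjusted p of 0.0682. Naprt overlaps 277 bases of Eef1d exons on the same strand but had at most 3 reads in any library.

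Eef1e1 (ENSMUSG00000001707, chromosome 13, 38644207 to 38659058, minus strand) carries the elongation factor name, but its product, also called AIMP3, is a scaffold of the multi-tRNA synthetase complex. Its level was even in control, at 230, 242 and 253 CPM, and spread widely in Eef1g-cKO, at 370, 219 and 138 CPM. The Eef1g-cKO libraries thus lay on both sides of control. The log2 fold change was 0.015 (SE 0.26, 95% interval −0.53 to 0.56, edgeR adjusted p 0.98), and its sign changed with the scaling. The interval does not allow a statement that Eef1e1 was unaltered.

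Eef2 (ENSMUSG00000034994, chromosome 10, 81176631 to 81182498, plus strand), the translocase, had 235, 175 and 176 CPM in control libraries and 71.2, 108 and 75.7 CPM in those of Eef1g-cKO. The groups did not overlap. The mean fell by 56.5%, a log2 fold change of −1.18 (SE 0.24, 95% interval −1.69 to −0.67, edgeR adjusted p 0.0031). The call held when any 1 library was left out, from −1.40 to −1.02.

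Its kinase Eef2k (ENSMUSG00000035064, chromosome 7, 120842831 to 120907450, plus strand) was scarce. It had 33, 32 and 23 reads in control libraries and 14, 34 and 0 reads in Eef1g-cKO libraries. The 0 in replicate 3 allows up to 4.63 CPM by counting error alone, and replicate 1, at 11.3 CPM, also lay under the control range of 12.9 to 25.2 CPM. Replicate 2, at 13.3 CPM, lay within that range. The log2 fold change of −1.0 had an SE of 0.73 and a 95% interval of −2.53 to 0.52 (edgeR adjusted p 0.40), so a change was not detectable at this depth.

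Etf1 (ENSMUSG00000024360, chromosome 18, 34902785 to 34932007, minus strand) encodes eRF1, which reads the stop codon. It had 209, 224 and 230 CPM in control libraries and 281, 347 and 202 CPM in those of Eef1g-cKO. Replicates 1 and 2 of Eef1g-cKO lay above control and replicate 3 lay under it. The log2 fold change was 0.34 (SE 0.20, 95% interval −0.08 to 0.76, edgeR adjusted p 0.29). Without Eef1g-cKO replicate 3 it was 0.55 with an adjusted p of 0.0323, the only fit with a member called higher, against 8.57% of all tested genes.

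Gspt1 (ENSMUSG00000062203, chromosome 16, 11219292 to 11254325, minus strand), the GTPase partner of eRF1, had 186, 137 and 161 CPM in control libraries and 205, 143 and 216 CPM in those of Eef1g-cKO. The groups overlapped, and the log2 fold change was 0.21 (SE 0.22, 95% interval −0.25 to 0.68, edgeR adjusted p 0.58). An antisense gene, 2610020C07Rik, overlaps 239 bases of its exons and had 42, 66 and 34 reads in control and 35, 43 and 1 in Eef1g-cKO. Whether the counting used strand is not given in the sources used here, so a part of these reads cannot be told apart from those of Gspt1.

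Abce1 (ENSMUSG00000058355, chromosome 8, 79683462 to 79711740, minus strand), the recycling ATPase, was nearly the same in the control libraries, at 373, 370 and 382 CPM. It had 425, 387 and 530 CPM in Eef1g-cKO libraries, each above every control library. The log2 fold change was nevertheless small, at 0.25 (SE 0.17, 95% interval −0.10 to 0.60, edgeR adjusted p 0.36). Among the 10 genes, every Eef1g-cKO library lay under every control library for 5 and above for 1. Over all tested genes these shares were 18.1% and 16.4%. The upper ends of the intervals of Etf1, Gspt1 and Abce1 leave room for increases, and their lower ends lie above the log2 fold changes of the 5 lower genes.

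**Figure D2:**
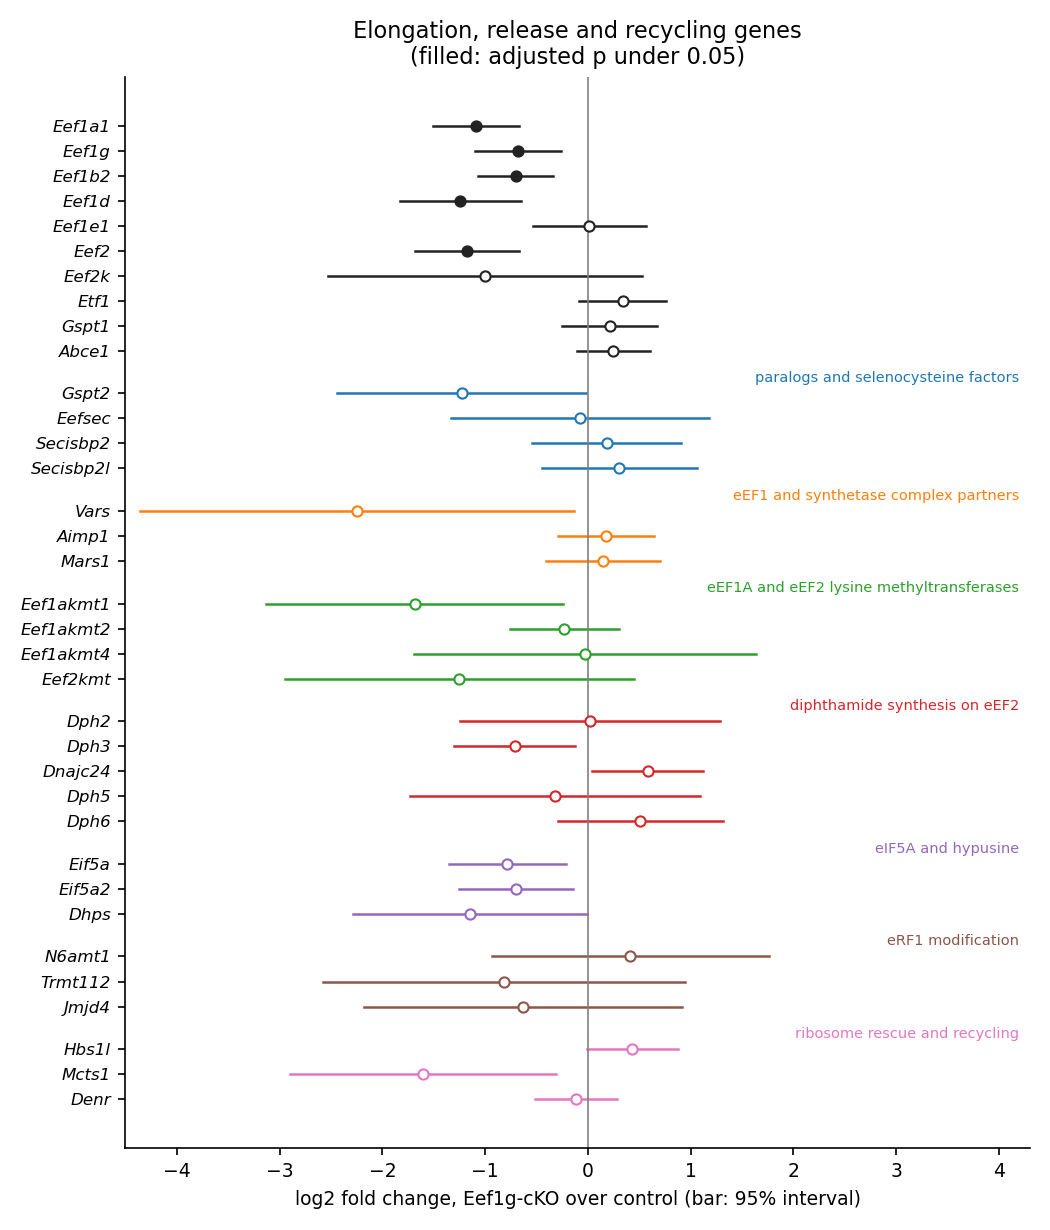
Log2 fold change of Eef1g-cKO over control with its 95% interval for the 10 members (black) and 25 other tested genes of the pathway by list (colours). Filled points have an edgeR adjusted p under 0.05, and all 5 of them are members with negative values.

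Ratios of 2 genes within 1 library do not depend on how libraries are scaled, so each member was also set against Eef1g in its own library. Etf1 stood at 0.0056 ± 0.10 log2 units relative to Eef1g in control and 0.99 ± 0.22 in Eef1g-cKO (SD, n = 3), a difference of 0.99. Abce1 had 0.77 ± 0.074 in control and 1.71 ± 0.40 in Eef1g-cKO, and Gspt1 had −0.46 ± 0.24 and 0.45 ± 0.48. These 3 genes were higher relative to Eef1g in each Eef1g-cKO library than in any control library. Because Eef1g was itself lower (log2 fold change −0.68), a gene without any change would also rise relative to it. Eef1a1 and Eef2 differed the other way, by −0.45 and −0.51 log2 units relative to Eef1g, also without overlap. How many of all tested genes have ratios to Eef1g without overlap, in either direction, was not counted. For CPM, 16.4% of all tested genes lay higher without overlap and 18.1% lower. For each of the 5 ratios without overlap the exact permutation test (2-sided) gave 0.1, the lowest p that 3 against 3 can reach. After adjustment over the 9 ratios it was 0.18, so none can pass 0.05 in this design.

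The ratio of Eef1b2 to Eef1g overlapped between groups, at 1.11 ± 0.071 log2 units in control and 1.10 ± 0.40 in Eef1g-cKO. The exact permutation p was 1, and the wide spread in Eef1g-cKO came with replicate 3 at 1.56 against 0.90 and 0.83 in the others. Eef1d and Eef1e1 overlapped between groups relative to Eef1g, with exact permutation p of 0.3 and 0.2. For Eef2k, with 0 reads in 1 library, the ratio rests on the 0.5 reads added to each count.

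**Figure D3:**
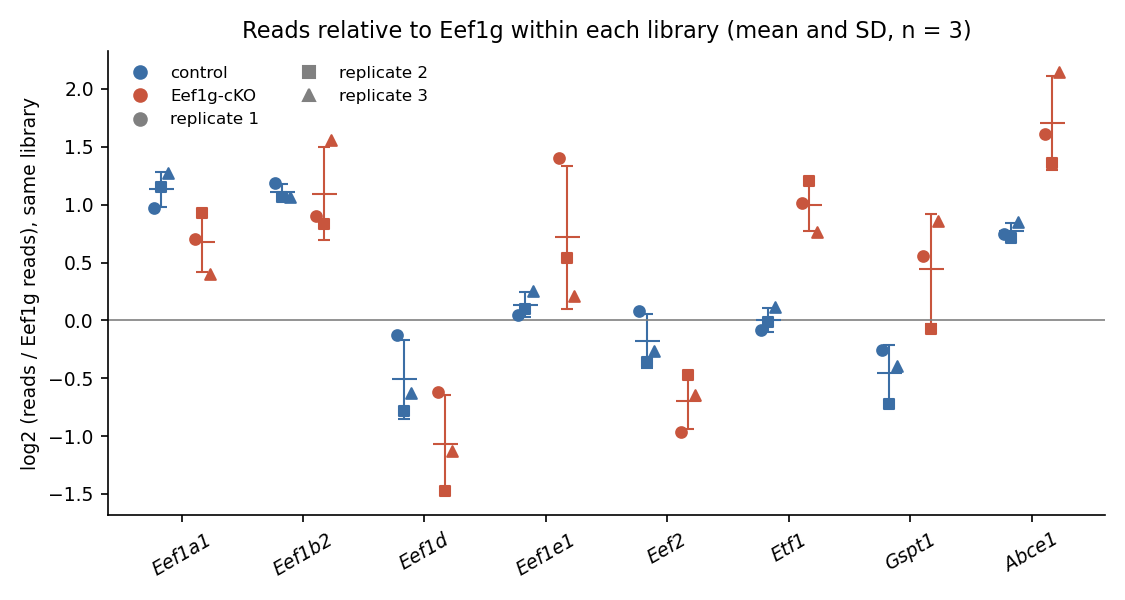
Log2 ratio of each member's reads to Eef1g reads in the same library, with mean and SD (n = 3); Eef2k is left out for its low counts. Etf1, Gspt1 and Abce1 lie higher in every Eef1g-cKO library than in every control library, Eef1a1 and Eef2 lie lower, and Eef1b2 overlaps. The share of all tested genes with such ratios was not counted.

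The genes differed widely in level. Compared as CPM per kilobase of the gene's exons, the only scale here on which genes can be set against each other, control cells held most Eef1a1 (194 ± 16.7, SD, n = 3) and Eef1b2 (187 ± 12.8), and these neighbours overlapped. Eef1g followed at 84.5 ± 2.82 and Eef1e1 at 74.2 ± 3.57, each apart from the genes next to it in mean. The lowest control library of Eef1e1 (70.5) lay just under the highest of Eef2 (70.7). Abce1 (62.4 ± 1.11), Etf1 (59.5 ± 2.83) and Eef2 (58.8 ± 10.3) formed an overlapping run, and Gspt1 (29.7 ± 4.58) overlapped with Eef1d (24.3 ± 6.21). Eef2k was last at 2.47 ± 0.85. Exons of all isoforms enter the length, 6488 bases for Eef1d against 2842 in its longest coding transcript, which makes the level of such a gene read low.

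In Eef1g-cKO cells the SD was larger than in control for 8 of the 10 members. The share of all tested genes with a larger SD in Eef1g-cKO was not counted, and this group held the shallowest library (763133 reads). Eef1b2 (116 ± 20.2 CPM per kilobase) and Eef1a1 (89.8 ± 26.1) still led, but the 6 genes from Eef1b2 down to Eef1g each overlapped with the next. The means of Etf1 (74.7 ± 19.5), Abce1 (74.5 ± 12.3) and Eef1e1 (74.3 ± 36.1) stood above that of Eef1g (52.4 ± 6.16), the reverse of their order in control. The mean of Gspt1 (34.6 ± 7.28) likewise stood above that of Eef2 (25.6 ± 6.08), with overlapping libraries. The members together made up 0.259% to 0.272% of all reads in control and 0.156% to 0.196% in Eef1g-cKO libraries.

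The members also differ in base composition, which the choice of genes did not use. GC content of the longest coding transcript was 52% for Eef1g, 56.1% for Eef1d and 57% for Eef2, and 44.3% for Etf1, 45.2% for Gspt1 and 40.3% for Abce1. Eef1a1 (47.4%) and Eef1b2 (46.2%) lay between. With an offset for GC content, 4 genes and 5.43% of all tested genes were lower: Eef1a1 (−1.11), Eef1b2 (−0.78), Eef1d (−1.22) and Eef2 (−0.81, edgeR adjusted p 0.0302). Eef1g was then at −0.50 with an adjusted p of 0.11, and Abce1 at −0.065. For Eef1a1, Eef1b2 and Eef1d the decrease was thus as large, or nearly so, with the offset.

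**Figure D4:**
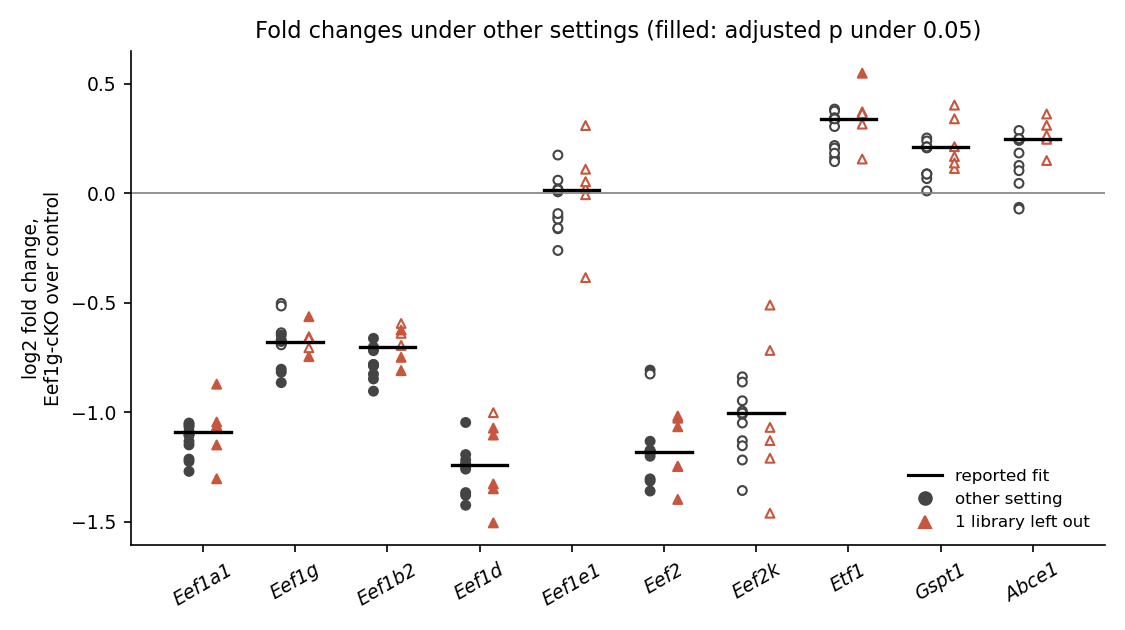
Log2 fold changes of the 10 members in the reported fit (line), under up to 12 other settings (circles) and with 1 library left out (triangles), filled where the adjusted p was under 0.05. Eef1a1 stays filled throughout, between −1.30 and −0.87, and Eef1e1 lies on both sides of 0.

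Of 34 other genes of elongation, release and recycling, listed by function, 25 could be tested. By edgeR at an adjusted p under 0.05, 0 were higher and 0 lower, against 7.8% and 6.01% of all tested genes. At an unadjusted p under 0.05, 1 was higher and 8 were lower, against 14.3% and 13.2% of all tested genes. DESeq2 called 0 higher and 1 lower, against 8.63% and 7.19% of all tested genes. With limma-voom 1 was higher and 4 were lower, against 10.8% and 8.07%. The median log2 fold change of the 25 was −0.23. The paralog Eef1a2, typical of muscle and neurons, had at most 1 read in a library, so Eef1a1 supplied nearly all eEF1A reads.

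The hypusine pathway, in which Dhps and Dohh modify eIF5A, a factor that helps ribosomes past difficult peptide bonds, held the 2 lowest adjusted p-values of these lists. All 3 of its tested genes had negative values, as 4469 of all 8513 tested genes did. In each of the 3 every Eef1g-cKO library lay under every control library, against 18.1% of all tested genes. Eif5a2, the highest of this list in control CPM but not per kilobase, had 162 ± 26 CPM in control libraries against 102 ± 34.9 CPM. Its log2 fold change was −0.70 (SE 0.27, edgeR adjusted p 0.087). It was called lower with the GC offset (−1.06), limma-voom (adjusted p 0.0119) and upper-quartile scaling (0.0451), but not with DESeq2. Eif5a, named after its values were seen, had 114 ± 23.1 and 65.8 ± 7.47 CPM (−0.79, SE 0.27, adjusted p 0.0617). It was called lower with DESeq2 (adjusted p 0.041), limma-voom (0.0369) and upper-quartile scaling (0.0325), but not with the GC offset.

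Each of the other lists is given by the gene with the highest mean CPM in control, which is not a rank per kilobase. Of the 7 diphthamide genes, which build the modified histidine of eEF2, 5 were tested, and Dph3 had 93.3 ± 7.4 and 57.3 ± 8.24 CPM (−0.71, adjusted p 0.10). Dnajc24 of this list, named after its values were seen, stood above Dph3 per kilobase in control. It had 87.3 ± 13.8 and 129 ± 31.6 CPM (0.58, adjusted p 0.15). Of 6 methyltransferases of eEF1A and eEF2 4 were tested, all with negative values, and Eef1akmt2 had 99.5 ± 7.73 and 84.7 ± 5.3 CPM (−0.23, adjusted p 0.60). Among partners of the eEF1 and synthetase complexes Aimp1 had 163 ± 43.4 and 184 ± 18.8 CPM (0.18, adjusted p 0.66). Vars, the valyl-tRNA synthetase that binds eEF1, was named after its values were seen. It had 13, 20 and 19 reads in control and 0, 12 and 0 in Eef1g-cKO libraries (adjusted p 0.15).

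Denr, which acts in recycling of the small subunit, had 257 ± 23 and 235 ± 41.9 CPM (−0.12, adjusted p 0.74). Trmt112, a partner of the eRF1 methyltransferase, had 17.4 ± 9.29 and 8.65 ± 12.9 CPM (−0.81, adjusted p 0.58), and Secisbp2l, which resembles the selenocysteine factor Secisbp2, had 60.7 ± 15.2 and 76.9 ± 33.7 CPM (0.31, adjusted p 0.63). All adjusted p-values are from the edgeR test.

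The genes whose levels followed Eef1g most closely over the 6 libraries were found by the largest difference, in any library, between log2 CPM values centred on the gene's mean. They were Rplp0, a ribosomal stalk protein, with a difference of 0.10, Txn1 (thioredoxin) with 0.10 and Poldip3 with 0.11. Rplp0 had 724 ± 13.2 CPM in control libraries against 469 ± 86.9 CPM (log2 fold change −0.62). Txn1 had −0.63 and Poldip3 −0.79 on the same scale. Since these genes were picked for their likeness to Eef1g, the values are a description with no test. The nearest member was Eef1b2, with a difference of 0.46.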

How the data were processed

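Polyadenylated RNA of 6 libraries was amplified as full-length cDNA and sequenced without molecular identifiers, so detection floors cover counting error only. The 95% intervals come from the edgeR test and also hold the spread between libraries. The authors filtered reads with fastp, aligned them to GRCm38 with HISAT2 and deposited raw read counts per gene from featureCounts, 1 column per library. How multi-mapping reads and strand were treated is not given in the sources used here. Gene positions of 98.3% of IDs matched GENCODE M21, which supplied exons, GC content and transcripts; copies were pseudogenes matched by blastn 2.17.0 at 95% identity or more over at least 150 bases.

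Columns were matched to samples by name. The pairwise chi-square of counts was at least 6.37 per degree of freedom, so no library was a duplicate. Counts were tested with edgeR 4.0.16 in R 4.3.3 (filterByExpr with minimum count 10 and total 15, TMM, robust quasi-likelihood F test, genotype as the only term), with Benjamini-Hochberg adjustment over 8513 genes holding 98.1% of reads. SE is the absolute log2 fold change over the square root of F, and 95% intervals use the total (residual plus prior) degrees of freedom of the test. Ratios to Eef1g added 0.5 reads. Pathway lists name genes by function. The text gives all members, the gene with the highest control CPM in each list, the 3 most like Eef1g, and others with a remark. Members, lists and alternatives were chosen with earlier results of these data known. The alternatives were other scalings, filters and tools (DESeq2 1.42.0, limma 3.58.1), a GC offset, a replicate block and leaving out each library; removing rRNA and mitochondrial genes and adding reads of copies were chosen after seeing the data.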

Additional observations from a re-analysis of the deposited data

How the results depend on the processing

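With 3 libraries per group, up to 2617648 reads each and no molecular identifiers, depth limits the scarce genes, Eef2k above all. Eef1a1, Eef1b2 and Eef1d were lower under all 12 alternatives and Eef2 under 11 of them. Upper-quartile scaling, library totals and no low-count filter moved the median of all tested genes by −0.12, −0.19 and −0.25. Eef1g was not called when no low-count filter was used (−0.64), nor with the GC offset (−0.50), the replicate block (−0.69, adjusted p 0.0585) or the replicate block and GC offset (−0.52, adjusted p 0.16); with 1 library left out it ranged from −0.75 to −0.56. The number of members lower was 3 with the replicate block and GC offset, where Eef2 had an adjusted p of 0.0514, and 2 to 5 with 1 library left out; the number higher was 0 to 1. Among the other pathway genes, 2 were lower with upper-quartile scaling, 3 with library totals, 3 with at least 10 reads in every library, 1 with DESeq2, 4 with limma-voom, 1 with the GC offset and 1 with the replicate block and GC offset, and 1 was higher with limma-voom; with 1 library left out the numbers were 0 to 2 lower and 0 to 1 higher. Without Eef1g-cKO replicate 2 the lower ones were Trmt112 and Vars, and without replicate 3 Eif5a2 was lower and Dnajc24 higher. Over these settings 2.37% to 8.07% of all tested genes were lower and 3.23% to 10.8% higher, the main values being 6.01% and 7.8%. The causes were not tested.

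Eef1e1 was negative with upper-quartile scaling (−0.11), library totals (−0.16), at least 10 reads in every library (−0.12), the GC offset (−0.16), the replicate block (−0.093) and the replicate block with GC offset (−0.26), and ranged from −0.39 to 0.31 with 1 library left out, being negative without control replicate 1 or Eef1g-cKO replicate 1. Abce1 was negative with the GC offset (−0.065) and with the replicate block and GC offset (−0.073). None of these values was called. The replicate numbers gave no sign of pairing: deviations of same-numbered libraries from their group means correlated at −0.031, 0.014 and −0.039.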
